A study of Mus musculus with 16 samples.

Results

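The cells described here are 269 embryonic cortical neurons chosen for RNA of Hs3st4, Mc4r and Nfe2l3, out of 5777 cells in all (4.66%, 95% Clopper-Pearson interval 4.13 to 5.23). A cell was taken when its unique molecular identifiers (UMIs, each marking 1 captured RNA molecule) of Hs3st4, Mc4r and Nfe2l3 summed to at least 3, with at least 1 of Hs3st4. It also needed at least 1 UMI of Neurod6, a factor of cortical excitatory neurons, and at most 1 UMI of Gad1 and Gad2 together, the enzymes that make GABA in inhibitory neurons. The cells are called Hs3st4 neurons below. Because measured UMIs chose them, the levels of these 6 genes are a description of the choice and nothing was tested on them. The same caution holds for genes that vary together with the 3 genes, so the differences below are sizes, the main ones with counting intervals, and none is a test.

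Layer 6 is the deepest layer of the cortical plate, and its corticothalamic neurons send axons to the thalamus. They are among the first projection neurons to leave the progenitor zone, ahead of the layer 5 neurons that project below the forebrain and of the upper layer neurons that mostly join the cortical hemispheres through the corpus callosum. Tbr1, Sox5, Tle4, Foxp2 and Zfpm2 are textbook nuclear factors of this fate, while Fezf2 and Bcl11b direct layer 5 subcerebral neurons. Hs3st4 encodes an enzyme that adds a sulfate at the 3-O position of heparan sulfate chains, Mc4r a receptor for melanocortin peptides, and Nfe2l3 a transcription factor of the cap'n'collar family.

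The RNA came from forebrain of CD1 wild-type mouse embryos at embryonic day 15.5, prepared with the SureCell droplet kit of Illumina and Bio-Rad. The labels list 16 samples that share strain, genotype and tissue, and nothing in them names a treatment, a sex or separate animals. All cells were deposited in 1 count matrix whose cell names carry no sample, so the matrix counts as 1 sample, no comparison below has replicates, and no p-value is given. Intervals cover counting error only. The Hs3st4 neurons were compared with 3 sets of Neurod6 cells with at most 1 Gad UMI: 2368 other Neurod6 neurons with 0 UMIs of Hs3st4, Mc4r and Nfe2l3, 924 Fezf2 and Bcl11b neurons (at least 3 UMIs of both genes, at least 1 of Fezf2) and 316 Unc5d and Pdzrn3 neurons (at least 3 UMIs of both, at least 1 of Unc5d). Unc5d and Pdzrn3 are genes of young migrating neurons, and they were not read in the comparison with that set. These sets share cells with each other (639 between the first and the second, 265 between the first and the third, 93 between the second and the third), but none is an Hs3st4 neuron. A set of 553 cells with at least 3 Gad1 and Gad2 UMIs and no Neurod6 gave the level of RNA outside this lineage.

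The matrix holds 21609944 UMIs, 14498 genes and 0 repeated cell names. Its cells fall into 2 runs of neighbouring names, 3651 cells (run 1) and 2122 cells (run 2), with 4 cells between them. Run 1 was ended at the last cell with RNA of Y-linked genes. Run 2 was started at the first cell with RNA of 11 genes listed after the alphabetical order. By this cut the Y-linked genes lie in run 1 alone and the 11 genes in run 2 alone. The labels do not say what the runs are. The Hs3st4 neurons numbered 124 in run 1 (3.40%, 2.83 to 4.04) and 145 in run 2 (6.83%, 5.80 to 7.99), so their share of cells was higher in run 2. The share of all Neurod6 cells with at most 1 Gad UMI was also higher in run 2 (72.95%) than in run 1 (46.3%). Median depth was 4688 UMIs and 2278 genes in Hs3st4 neurons, with 1329 to 14230 UMIs per cell. The median was 3439 UMIs in other Neurod6 neurons, 4734 in Fezf2 and Bcl11b neurons and 3651 in Unc5d and Pdzrn3 neurons. Levels below are UMIs summed over the cells of a set and scaled to counts per 1e6 UMIs of that set (CPM), and a gene was measured in a comparison when both sets together held at least 50 UMIs of it.

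The start regions of Hs3st4 and Nfe2l3 are shown because RNA of these genes defines the cells. In the gene annotation of GRCm38, Hs3st4 lies at chr7:123982869-124398989 and Nfe2l3 at chr6:51432670-51458768, both on the plus strand. They are 300-base windows around the RefSeq start (build GRCm38.p6), written in the direction of the gene, at chr7:123982578-123982877 (plus strand) for Hs3st4 and chr6:51432419-51432718 (plus strand) for Nfe2l3. Capitals mark the letters AGGTGT (read on either strand), a core of T-box sites such as those of Tbr1, and CAGATG (read on either strand), an E-box form of the neuronal bHLH family.
Hs3st4: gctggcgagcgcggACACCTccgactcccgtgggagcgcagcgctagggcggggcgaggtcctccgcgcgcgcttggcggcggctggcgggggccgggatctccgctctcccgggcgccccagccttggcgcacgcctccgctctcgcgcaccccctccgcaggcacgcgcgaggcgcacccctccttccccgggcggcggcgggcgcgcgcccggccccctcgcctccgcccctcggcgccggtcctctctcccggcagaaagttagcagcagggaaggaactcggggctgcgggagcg
Nfe2l3: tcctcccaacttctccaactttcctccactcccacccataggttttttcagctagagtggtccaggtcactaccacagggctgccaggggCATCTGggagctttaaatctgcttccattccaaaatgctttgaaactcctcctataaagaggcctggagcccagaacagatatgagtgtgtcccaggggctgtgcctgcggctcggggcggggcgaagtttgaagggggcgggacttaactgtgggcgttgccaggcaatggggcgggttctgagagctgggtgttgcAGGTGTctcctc
The Hs3st4 window held 1 T-box match, at position -236 from the start, and no E-box match, and 79.3% of its bases were G or C. The Nfe2l3 window held 1 match of each motif and was 56.7% G or C. Of all 32851 windows of this length, 13.7% held the T-box letters and 17.2% the E-box letters. Of the 15 genes that led the comparison below, 12 had a window and 0 of these held either motif. Of the 14 textbook layer 6 genes 10 had a window, and Ntsr1 and Syt6 held the T-box letters. A match is a run of letters in a window, and no binding was measured.

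Among the 3 genes of the rule, Hs3st4 was the most widespread by construction. It had 970 UMIs in the Hs3st4 neurons, 68.8% of its 1410 UMIs in the whole matrix, with a median of 3 and a maximum of 15 UMIs in a cell. Mc4r had 336 UMIs in 140 of the 269 cells, 49.8% of its UMIs in the matrix, and Nfe2l3 had 389 UMIs in 174 cells, 40.6% of its UMIs. All 3 genes were found in 85 cells, Hs3st4 with Nfe2l3 in 89, Hs3st4 with Mc4r in 55 and Hs3st4 without either in 40. Neurod6 stood at 2092 CPM in Hs3st4 neurons and 2119 CPM in other Neurod6 neurons. The gates removed few cells: 303 cells met the UMI rule, of which 18 had no Neurod6 and 16 had Neurod6 with 2 or more Gad UMIs. A further 56 cells inside the gates had at least 3 UMIs of Mc4r and Nfe2l3 without any of Hs3st4.

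The label of layer 6 corticothalamic cells was set beside genes outside the rule. Sla and Lpl were given with the label as its markers, so their levels describe the cells and are no independent check of it. Sla, an adaptor that dampens receptor signalling, stood at 485 CPM in Hs3st4 neurons and 103 CPM in other Neurod6 neurons, and Lpl, lipoprotein lipase, at 619 and 111 CPM in the same order. Of the 14 textbook layer 6 genes 13 are in the matrix, and together they summed to 4948 CPM in Hs3st4 neurons, 1727 CPM in other Neurod6 neurons, 2790 CPM in Fezf2 and Bcl11b neurons, 1694 CPM in Unc5d and Pdzrn3 neurons and 927 CPM in Gad cells. Upper layer and callosal markers went the other way, with 14 genes summing to 891 CPM in Hs3st4 neurons and 2534 CPM in other Neurod6 neurons. The 10 layer 5 markers, which include Fezf2 and Bcl11b, summed to 2420 CPM in Hs3st4 neurons, 1431 CPM in other Neurod6 neurons and 1383 CPM in Gad cells. Bcl11b alone made up 1676 CPM of the sum in Hs3st4 neurons. Without Fezf2 and Bcl11b the other 8 summed to 384 CPM in Hs3st4 neurons, 437 CPM in other Neurod6 neurons and 425 CPM in Fezf2 and Bcl11b neurons. Of the 9 measured layer 5 markers 5 were at least 1.5-fold higher than in other Neurod6 neurons and 3 lower. The higher ones were Fezf2, Bcl11b, Ldb2 (126 against 61.5 CPM), Csmd3 (30.2 against 9.54 CPM) and S100a10 (36.9 against 18.9 CPM). The lower ones were Pcp4 (113 against 236 CPM), Etv1 (2.95 against 12.2 CPM) and Igfbp4 (35.4 against 62.4 CPM). The 10 subplate and layer 6b markers did not set the cells apart as a list, at 101 CPM in Hs3st4 neurons and 95.5 CPM in other Neurod6 neurons. Of 7 measured members 3 were higher, namely Nr4a2 (35.4 against 13.4 CPM), Hs3st2 (19.9 against 3.07 CPM) and Unc5c (9.59 against 4.39 CPM). Another 3 were lower, namely Lpar1 (5.90 against 27.6 CPM), Tmem163 (6.64 against 17.4 CPM) and Svil (2.21 against 8.44 CPM). Moxd1 and Trh were at 0 in Hs3st4 neurons and at 0.110 and 0.219 CPM in other Neurod6 neurons. Markers of inhibitory neurons (11 genes outside the rule) summed to 204 CPM in Hs3st4 neurons against 351 CPM in other Neurod6 neurons and 5014 CPM in Gad cells. Of 11 microglia, vessel and choroid plexus markers 8 were at 0 in Hs3st4 neurons, 8 in Unc5d and Pdzrn3 neurons and 7 in Gad cells. The blood genes of that list were not in the matrix. Thalamic markers (9 genes) summed to 105 CPM in Hs3st4 neurons and 316 CPM in other Neurod6 neurons, and Cajal-Retzius markers (8 genes) to 131 and 200 CPM. The layer 6 markers were thus high in these cells, while single layer 5 markers differed in both directions.

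Cells just inside and just outside the limit of 3 UMIs were alike for several of these genes. Lpl stood at 439 CPM (364 to 525) in the 53 cells with 3 UMIs and at 490 CPM (421 to 566) in 83 cells with 2 UMIs that also carried Hs3st4, and Sla stood at 435 and 362 CPM. Tle4, a corepressor of the Groucho family, stood at 374 CPM inside and 250 CPM outside. Further from the limit the levels separated. Tle4 reached 791 CPM in the 137 cells with 6 or more UMIs, against 83.4 CPM in the cells with none. Unc5d, a netrin receptor of migrating neurons, stood at 5.75 CPM in cells with 6 or more UMIs, 54.4 CPM in cells with 3, 87.8 CPM in cells with 2 and 153 CPM in cells with none. Eomes, a factor of intermediate progenitors, stood at 28.8, 171, 213 and 515 CPM in the same 4 sets. For Tle4, Lpl and Sla the limit thus lay within a gradient of levels, while Unc5d and Eomes were far lower from 4 UMIs upwards (5.19 and 46.7 CPM in the 79 cells with 4 or 5).

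**Figure D1:**
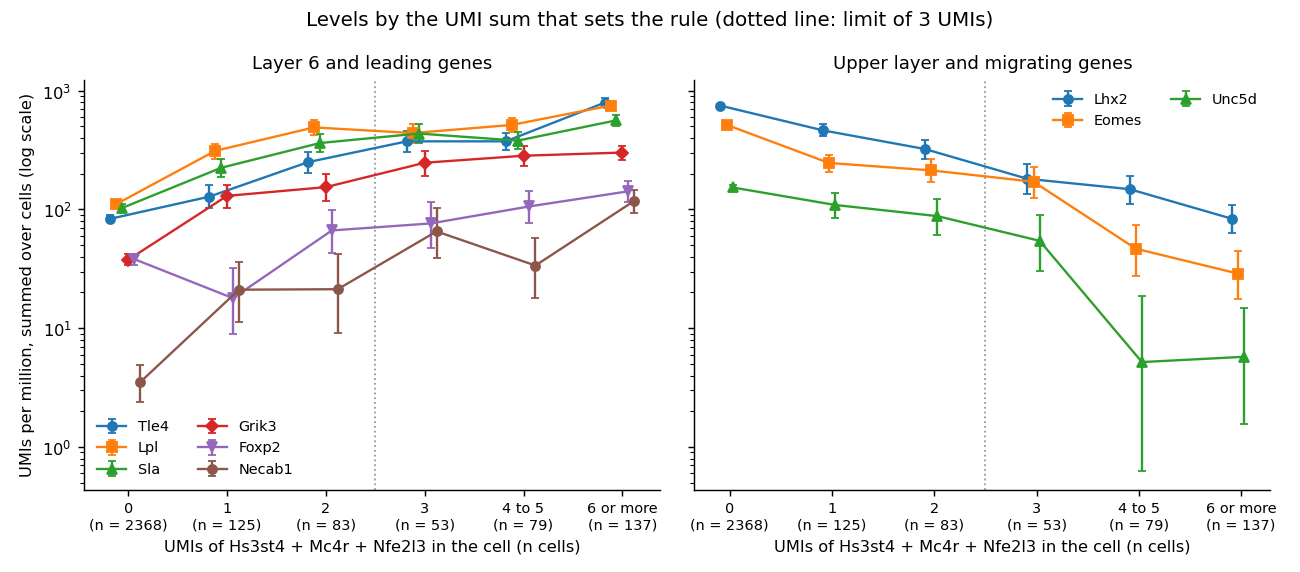
Levels (CPM, log scale, points with 95% Poisson intervals) of layer 6 and leading genes on the left and upper layer and migrating genes on the right, in cells grouped by their UMIs of Hs3st4, Mc4r and Nfe2l3, low to high. Cells with 1 or more UMIs carry Hs3st4. Tle4 stands at 83.4 CPM in the lowest group and 791 CPM in the highest, while Lhx2 stands at 747 and 83.4 CPM.

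Against other Neurod6 neurons, 10550 genes were measured. Of these, 1268 were at least 1.5-fold higher in Hs3st4 neurons (12%) and 2272 at least 1.5-fold lower (21.5%), with a median log2 ratio of -0.12. The counts of each gene list over other Neurod6 neurons below are to be read beside these shares. The genes with the largest ratios, among those past 1.5-fold in the same direction in both runs and with at least 100 UMIs, were led by Necab1, a calcium-binding EF-hand protein. It stood at 83.3 CPM in Hs3st4 neurons and 3.51 CPM in other Neurod6 neurons, a 23.8-fold difference (15.9 to 36.4), and was found in 61 cells (22.7%) against 24 cells (1.01%). Its levels in Hs3st4 neurons were 67.5 CPM in run 1 and 98.6 CPM in run 2, against 0.783 and 6.98 CPM in other Neurod6 neurons. Leading genes had to be past 1.5-fold in both runs, so the 2 runs are no separate check of them. Nxph3, a secreted neurexophilin that binds neurexins, was 15.1-fold higher (61.2 against 4.06 CPM).

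Kctd12, Sybu and Tle4 were both strong and widespread. Kctd12 is an auxiliary subunit of GABA-B receptors. It stood at 741 CPM in Hs3st4 neurons and 82.6 CPM in other Neurod6 neurons (8.98-fold, 8.16 to 9.88), with a UMI in 218 of the 269 Hs3st4 neurons. In Hs3st4 neurons it reached 608 CPM in run 1 and 870 CPM in run 2, against 68.9 and 99.9 CPM in other Neurod6 neurons. Sybu, syntabulin, which couples synaptic cargo to kinesin, stood at 486 and 52.9 CPM (9.20-fold, 8.16 to 10.4), and Tle4 at 588 and 83.4 CPM (7.04-fold, 6.37 to 7.79). The kainate receptor subunit Grik3 was 7.55-fold higher (6.51 to 8.75) and its ratio was 7.66 in run 1 and 7.68 in run 2. The calcium-stimulated adenylyl cyclase Adcy1 was 8.43-fold higher (7.25 to 9.80). Brinp1, a neural protein induced by retinoic acid and BMP in culture, was 11.6-fold higher, and the synaptic adhesion protein Lrrtm3 10.4-fold. The other leading genes were Grip2, Pcsk5, Prickle1, Ppfia4, Mdga2 and Fgf18, with ratios of 6.85 (Fgf18) to 9.26 (Grip2).

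Of the textbook layer 6 genes, 12 were measured, 11 were at least 1.5-fold higher, none was lower, and their median log2 ratio was 1.64. Tle4 and Grik3 were the highest of them. Syt6, a synaptotagmin, was 6.64-fold higher (58.3 against 8.77 CPM), with a ratio of 2.72 in run 1 and 10.5 in run 2. Ntsr1, the neurotensin receptor used to mark mature corticothalamic neurons in mice, was 4.42-fold higher (63.4 against 14.4 CPM) and was found in 66 of the 269 cells. Zfpm2 was 3.95-fold, Foxp2 3.11-fold, Rprm 3.11-fold, Sox5 2.67-fold, Garnl3 2.26-fold, Tbr1 2.19-fold and Fezf2 1.82-fold higher. Crym, a thyroid hormone binding protein, stood at 61.9 CPM in Hs3st4 neurons and 42.3 CPM in other Neurod6 neurons, within the 1.5-fold limit (1.46-fold). Its ratio was 0.606 in run 1 and 1.72 in run 2. Syt6 and Grik3 were not particular to this lineage, at 65.8 and 205 CPM in Gad cells against 58.3 and 285 CPM in Hs3st4 neurons. The whole textbook list summed to 927 CPM in Gad cells and 4948 CPM in Hs3st4 neurons.

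**Figure D2:**
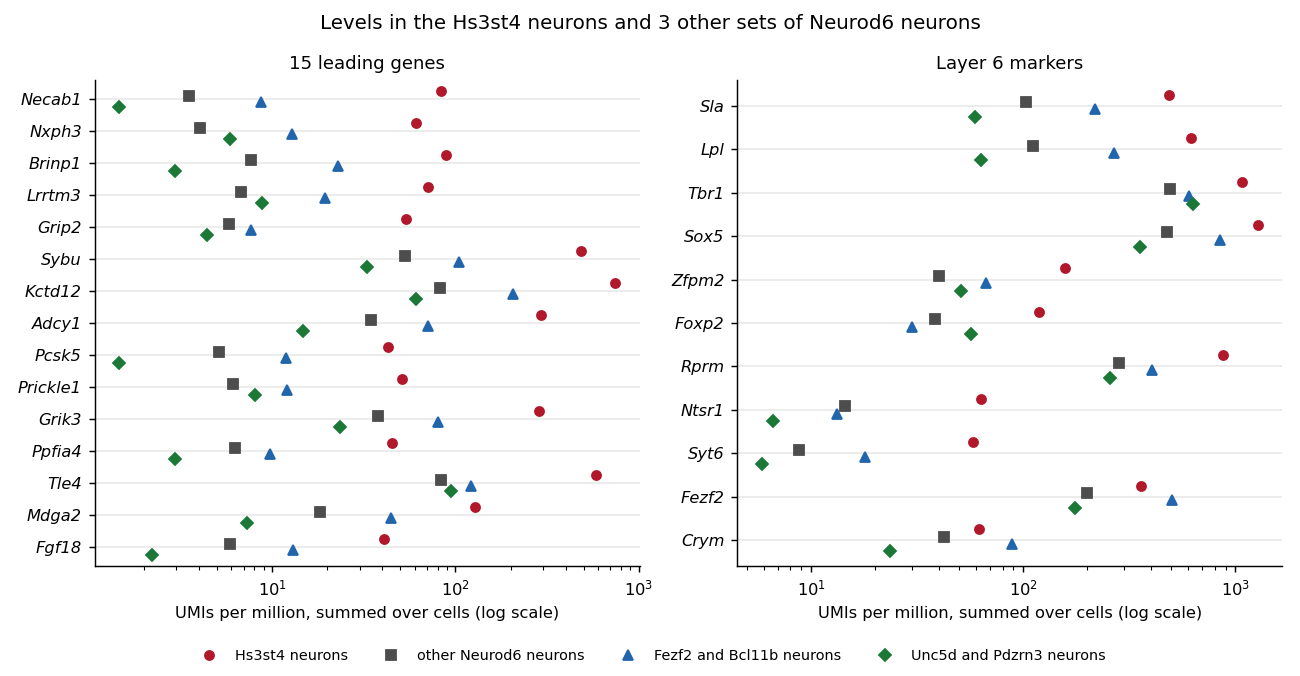
Levels (CPM, log scale) of the 15 leading genes (left) and 11 layer 6 markers (right) in Hs3st4 neurons, other Neurod6 neurons, Fezf2 and Bcl11b neurons and Unc5d and Pdzrn3 neurons, each point a sum over the cells of the set. The Hs3st4 neurons hold the highest level of each of the 15 leading genes, and of the layer 6 markers Fezf2 and Crym are highest in the Fezf2 and Bcl11b neurons.

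The enzyme family of Hs3st4 itself differed by member. Hs3st5 stood at 36.9 CPM in Hs3st4 neurons and 2.08 CPM in other Neurod6 neurons, 17.7-fold higher (10.3 to 31.8), from 50 UMIs in 34 cells against 19 UMIs in 17 cells. Hs3st3b1 stood at 36.9 and 2.30 CPM, 16.01-fold higher (9.44 to 28.1), and Hs3st2 at 19.9 and 3.07 CPM, 6.49-fold higher (3.68 to 11.4). Each of the 3 was above 5-fold in both runs. Hs3st1 went the other way, at 21.4 CPM in Hs3st4 neurons and 85.1 CPM in other Neurod6 neurons, 3.98-fold lower (2.75 to 5.98). Hs3st3a1 had 0 UMIs in Hs3st4 neurons, which allows up to 2.21 CPM. The wider list of heparan sulfate enzymes and proteoglycans was mixed. Of its 29 measured members 7 were higher and 6 lower, beside 12% and 21.5% of all genes, and the median log2 ratio of the list was -0.01. Its core proteins included the glypican Gpc3, with 1 UMI in Hs3st4 neurons against 52 in other Neurod6 neurons (7.73-fold lower, 1.33 to 311).

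Transmitter receptors were higher in Hs3st4 neurons as lists. Of 16 measured glutamate receptor genes, including auxiliary subunits, 11 were higher and 1 lower, with a median log2 ratio of 1.33 beside -0.12 for all genes. Neto2, an auxiliary subunit of kainate receptors, was 4.28-fold higher (555 against 130 CPM), next after Grik3. Among genes named after their values were seen, the NMDA receptor subunit Grin2b was 3.71-fold higher, the AMPA receptor subunits Gria3 3.74-fold and Gria1 2.97-fold, and the metabotropic receptor Grm5 3.78-fold, while Gria2 stood at 834 and 718 CPM, within the limit. Grm2 was lower, at 6 UMIs and 4.42 CPM in Hs3st4 neurons and 7.89 CPM in other Neurod6 neurons (1.78-fold, 0.781 to 5.02). Of 14 GABA and other transmitter receptor genes 10 were higher and 2 lower. The GABA-A subunit Gabra3 was 4.42-fold and the adenosine receptor Adora1 3.83-fold higher, whereas the subunit Gabra2 was 4.05-fold lower (8 UMIs, 2.02 to 9.50). Drd1, the dopamine D1 receptor, had too few UMIs to be measured but was named after its values were seen. It had 30 UMIs in 23 Hs3st4 neurons and 13 UMIs in 9 other Neurod6 neurons, or 22.1 and 1.43 CPM. The 12 striatal markers, a list that holds Drd1, summed to 702 CPM in Hs3st4 neurons and 822 CPM in other Neurod6 neurons, and 2 of them were at 0 in Hs3st4 neurons.

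Ion channels followed with smaller shifts. Of 21 sodium and calcium channel genes 11 were higher and 3 lower (median log2 ratio 0.65), led by the L-type calcium channel Cacna1d (3.50-fold) and the sodium channel Scn2a1 (3.18-fold). Scn1a had 1 UMI in Hs3st4 neurons against 113 in other Neurod6 neurons (16.8-fold lower, 2.95 to 669). Of 27 potassium and HCN channel genes 12 were higher and 3 lower (0.45). Kcnma1, the large-conductance calcium-activated channel, was 3.17-fold higher, with ratios of 3.25 and 2.91 in the 2 runs. Kcnip2, a subunit of A-type channels, was 5.19-fold higher over both runs (27 UMIs), but its ratio was 0.807 in run 1 and 9.09 in run 2. Kcnf1 had 0 UMIs against 57, at least 2.82-fold lower with 3 counts over the set as the floor.

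Genes of the synapse and of adhesion were shifted in the same direction. Of 38 presynaptic and vesicle genes 24 were higher and 5 lower (median log2 ratio 0.83). The vesicular glutamate transporters split: Slc17a7 stood at 53.1 CPM in Hs3st4 neurons and 15.2 CPM in other Neurod6 neurons (3.48-fold higher, 2.58 to 4.66), and Slc17a6 at 24.3 and 131 CPM (5.38-fold lower, 3.81 to 7.85). Slc17a7 is the form of mature cortex, and Slc17a6 is the form of the thalamus and of young neurons. Of 29 postsynaptic genes 14 were higher and 2 lower (0.56), led by the phosphatase inhibitor Ppp1r1b (6.22-fold) and the kinase-like protein Camkv (4.18-fold). Of 38 contactins, L1 family and other immunoglobulin or leucine-rich adhesion genes 23 were higher and 3 lower (0.77). Mdga2, which binds neuroligins, was 6.97-fold higher (5.60 to 8.67), and Flrt3, a latrophilin and Unc5 ligand, was 9.03-fold lower (5.69 to 15.3). Of 42 cytoskeletal genes of axon and growth cone 18 were higher and 3 lower (0.50), with the centrosomal protein Nin at 521 and 112 CPM and the intermediate filament protein Ina at 448 and 129 CPM.

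Guidance genes and cadherins moved in both directions. Of 29 guidance receptors 6 were higher and 10 lower: Ephb1 was 3.08-fold higher, and Unc5d was 9.88-fold lower (6.44 to 16.02), at 15.5 CPM in Hs3st4 neurons and 153 CPM in other Neurod6 neurons. Of 23 guidance ligands 6 were higher and 9 lower, and the Slit genes were on both sides, Slit1 3.47-fold higher (74.5 against 21.5 CPM) and Slit2 7.51-fold lower (4 UMIs, 2.89 to 27.8). Of 25 cadherins and protocadherins 9 were higher and 9 lower, with Cdh13 4.12-fold higher and the giant cadherin Fat1 lower (10.3 against 61.95 CPM). The shares of these 3 lists past the limit can be set beside 12% higher and 21.5% lower for all genes.

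Among signalling genes, of 43 cyclic AMP and G protein genes 19 were higher and 3 lower, with a median log2 ratio of 0.42. Beside Adcy1, the G protein alpha subunit Gnal was 5.18-fold higher (165 against 31.9 CPM), and the phosphodiesterase Pde1b was 4.87-fold lower (16.2 against 79.1 CPM). Of 14 measured peptide signalling genes 4 were higher and 7 lower, beside 12% and 21.5% of all genes. Npy, neuropeptide Y, stood at 67.8 CPM in Hs3st4 neurons and 10.5 CPM in other Neurod6 neurons, but 87 of its 92 UMIs lay in 26 cells of run 2, and its ratio was 0.710 in run 1 and 12.05 in run 2. The somatostatin receptor Sstr2 was 4.44-fold lower. Of 22 lipoprotein and lipid genes 4 were higher and 6 lower, against 12% and 21.5% of all genes, with Lpl 5.58-fold higher (5.09 to 6.12) and the fatty acid binding proteins split into Fabp3 (3.53-fold higher) and the radial glia gene Fabp7 (5.48-fold lower). Of 35 neurotrophin, Wnt, FGF and retinoid genes 10 were higher and 13 lower, beside the same 12% and 21.5%. The neurotrophin receptor Ngfr was 7.27-fold higher (29.5 against 4.06 CPM, 4.53 to 11.7) and the Wnt receptor Fzd1 5.88-fold lower.

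Of 28 neuronal RNA-binding proteins 7 were higher and 7 lower, beside 12% and 21.5% of all genes. The splicing regulator Rbfox1 was 3.03-fold higher and Ptbp1, a splicing regulator of progenitors, 3.48-fold lower. Of 38 chromatin regulators 6 were higher and 9 lower, shares near the 12% and 21.5% of all genes, with the remodelling ATPase Smarca2 2.51-fold higher and Hmgb2 6.85-fold lower (21.4 against 147 CPM).

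Of 28 deep layer transcription factors 14 were higher and 6 lower (median log2 ratio 0.58). After Tle4 the zinc finger factor Tshz3 was highest, at 294 CPM in Hs3st4 neurons and 50.1 CPM in other Neurod6 neurons (5.87-fold, 5.12 to 6.73). Bcl11b was 2.11-fold higher. Etv1, a factor of layer 5 neurons, was 4.13-fold lower (4 UMIs, 1.57 to 15.4). Of 19 callosal and upper layer factors 14 were lower and 2 higher (-1.51). Lhx2 stood at 122 CPM in Hs3st4 neurons and 747 CPM in other Neurod6 neurons (6.14-fold lower, 5.26 to 7.21). The 2 higher genes were Rorb and the plexin Plxnd1. Rorb, a nuclear receptor best known as a layer 4 gene of postnatal cortex, stood at 147 and 32.3 CPM (4.56-fold higher, 3.79 to 5.48), and was found in 95 of the 269 cells.

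Genes of younger and dividing cells were lower. Of 20 bHLH and immature neuron factors 14 were lower and none higher (median log2 ratio -1.24), with Eomes at 62.7 CPM in Hs3st4 neurons and 515 CPM in other Neurod6 neurons (8.22-fold, 6.63 to 10.3) and Neurod4 9.18-fold lower. Neurod2 and Sox11, chosen after their values were seen, were within the limit, at 1293 and 1134 CPM and at 10279 and 9857 CPM. Of 11 newborn and migrating neuron markers 10 were lower (-2.73), among them Neurog2 (7.60-fold) and Neurod1 (4.51-fold), both chosen after their values were seen. Of 30 cell cycle genes 29 were lower, the kinase Bub1 12.3-fold (2 UMIs, 3.34 to 102) and the cyclin Ccnb1 10.7-fold (5.40 to 24.9). All 12 radial glia markers were lower as well: they summed to 594 CPM in Hs3st4 neurons and 2581 CPM in other Neurod6 neurons, with none at 0 in either set. The part of such RNA in the differences of this paragraph was not tested. Of 21 immediate early genes 12 were lower and 4 higher, with Fos 3.92-fold lower and Dusp6 4.50-fold higher. None of 34 nuclear genes of mitochondrial energy metabolism was past the limit in either direction (-0.14).

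The 10 leading lower genes were near or at 1 UMI in Hs3st4 neurons. Ttr, transthyretin of the choroid plexus, was the exception, with 15 UMIs in Hs3st4 neurons and 2593 in other Neurod6 neurons, but 2356 of these lay in 1 cell. Without that cell Ttr stood at 11.1 CPM in Hs3st4 neurons and 26.03 CPM in other Neurod6 neurons. Igfbp7 had 1 UMI against 129, and those 129 lay in 5 cells. The vinculin gene Vcl had 1 UMI in Hs3st4 neurons against 213 UMIs in 156 other Neurod6 neurons (31.7-fold lower, 5.62 to 1257), and the repair gene Brca1 1 UMI against 173 in 134 cells (25.7-fold, 4.56 to 1022). Rhoc, Adamtsl3, Zfp217, Scn1a, Dlgap5 and Hspg2 completed this group, each with 1 UMI in Hs3st4 neurons.

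**Figure D3:**
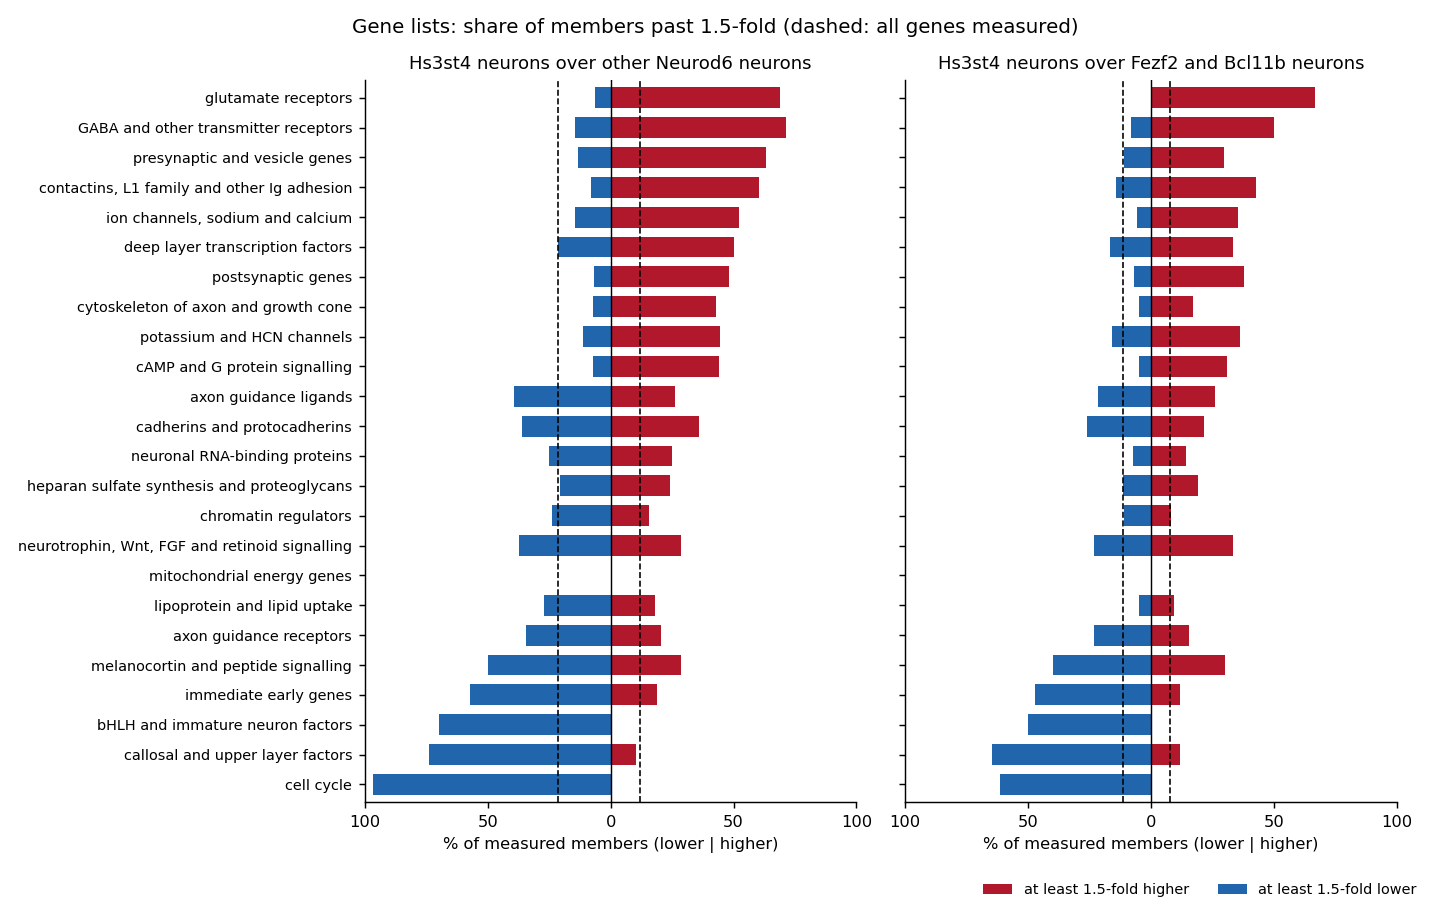
Share of the measured members of the gene lists that were at least 1.5-fold higher (red, to the right) or lower (blue, to the left) in Hs3st4 neurons, over other Neurod6 neurons (left panel) and over Fezf2 and Bcl11b neurons (right panel), with the share of all measured genes as dashed lines. Receptor, synapse and adhesion lists lie at the top, and the cell cycle list, with 29 of 30 members lower on the left, lies at the bottom.

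Fezf2 and Bcl11b neurons had a median depth close to that of the Hs3st4 neurons, and the rules overlapped. Of the 269 Hs3st4 neurons 166 (61.7%) also met the Fezf2 and Bcl11b rule, which is 15.2% of the 1090 cells that met it. They were kept as Hs3st4 neurons, so the comparison is with the 924 remaining cells, and Fezf2 and Bcl11b are not read in it. Of 9494 measured genes 739 were higher in Hs3st4 neurons (7.78%) and 1071 lower (11.3%). Necab1 led again, at 83.3 CPM in Hs3st4 neurons and 8.74 CPM in Fezf2 and Bcl11b neurons (9.54-fold, 6.62 to 13.99). Next came Grip2 (7.02-fold), Tle4 (4.81-fold, 4.32 to 5.37) and Ntsr1 (4.80-fold, 3.42 to 6.77). Of the textbook layer 6 genes without Fezf2, 11 were measured and 10 were higher, Foxp2 3.95-fold and Tbr1 1.78-fold. Crym was within the limit, at 61.9 and 88.4 CPM. Kitl, the ligand of the Kit receptor, was among the leading genes here (4.20-fold, 223 against 53.1 CPM). Of 15 glutamate receptor genes 10 were higher and none lower, and of 35 contactin and adhesion genes 15 were higher and 5 lower. Of 37 presynaptic and vesicle genes 11 were higher and 4 lower (median log2 ratio 0.50), and of 41 cytoskeletal genes 7 and 2 (0.23). Of 24 deep layer transcription factors 8 were higher and 4 lower (0.10). The medians of all these lists were smaller than over other Neurod6 neurons.

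Of the enzyme family, Hs3st5, Hs3st3b1 and Hs3st2 were higher than in the Fezf2 and Bcl11b neurons too, as were the given markers. Hs3st2 was 3.34-fold higher (1.89 to 5.87). Hs3st1 was 2.83-fold lower (21.4 against 60.5 CPM, 1.93 to 4.30), and Hs3st3a1 had 0 UMIs in both sets. Hs3st5 was 13.3-fold (7.12 to 26.7) and Hs3st3b1 10.2-fold (5.77 to 18.8) higher in Hs3st4 neurons than in Fezf2 and Bcl11b neurons, Lpl 2.30-fold and Sla 2.24-fold. Among the lower genes Unc5d was 7.20-fold lower (15.5 against 111 CPM), Flrt3 6.74-fold and the retinoid binding protein Crabp1 6.36-fold (3.39 to 13.4). Lmo4, a cofactor of callosal and layer 5 neurons, was 2.59-fold lower (135 against 349 CPM), and Pcp4, a calmodulin regulator of layer 5, 1.60-fold lower (113 against 180 CPM). Layer 5 markers were not lower as a list. Of 6 measured, 1 was higher, Csmd3 (30.2 against 13.6 CPM), and 1 lower, with a median log2 ratio of 0.05. Of all genes 7.78% were higher and 11.3% lower. The radial glia markers summed to 594 CPM in Hs3st4 neurons and 1298 CPM in Fezf2 and Bcl11b neurons, and their part in the lower genes was not tested. Ttr was again carried by 1 cell, with 2356 of its 2470 UMIs in the Fezf2 and Bcl11b neurons. The comparisons with the 3 sets use the same Hs3st4 neurons and partly the same other cells, so they are not independent of each other.

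Against the younger Unc5d and Pdzrn3 neurons, with which Hs3st4 neurons shared 2 cells by rule (0.743% of Hs3st4 neurons), 7719 genes were measured and 1153 were higher (14.9%) and 1199 lower (15.5%). All 12 measured layer 6 textbook genes were higher, with a median log2 ratio of 1.71. Necab1 was 56.7-fold higher (113 UMIs against 2, 15.3 to 474), Brinp1 30.3-fold (11.6 to 113), the lipase Mgll, which breaks down an endocannabinoid, 29.8-fold (11.4 to 111) and Adcy1 19.9-fold (12.7 to 32.9). Cdh13 was 12.8-fold and the dynein chain Dync1i1 12.6-fold higher. Rorb stood at 147 CPM in Hs3st4 neurons and 16.9 CPM in Unc5d and Pdzrn3 neurons (8.72-fold). Of the 18 measured bHLH and immature neuron factors 10 were lower and none higher, and Nhlh1 was 12.03-fold lower (7.10 to 21.9). The matrix protein Mfap4 was 19.5-fold lower (11.1 against 216 CPM) and the deacetylase Hdac9 13.2-fold (6.46 to 31.4). Lhx2 was 8.82-fold lower, and Pcp4 4.81-fold lower (113 against 543 CPM). Of 8 measured layer 5 markers, Fezf2 and Bcl11b included, 5 were higher and 2 lower, beside 14.9% and 15.5% of all genes. Radial glia markers summed to 594 CPM in Hs3st4 neurons and 1414 CPM in Unc5d and Pdzrn3 neurons, which was not tested as a part of these differences.

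Detection in single cells was compared after each cell had been thinned to 1000 UMIs, which removed no cell. Bcl11b was found in 76.95% of Hs3st4 neurons (71.5 to 81.8) and 42.2% of other Neurod6 neurons. It was also found in 56.96% of Gad cells (52.7 to 61.1), a lower share, so it was common in inhibitory cells too. Sox5 was found in 70.3% of Hs3st4 neurons, 31.4% of other Neurod6 neurons and 10.7% of Gad cells, and Tbr1 in 62.5%, 32.1% and 4.52%. Tle4 was found in 39.4% of Hs3st4 neurons (33.5 to 45.5), 7.22% of other Neurod6 neurons, 10.3% of Fezf2 and Bcl11b neurons, 8.23% of Unc5d and Pdzrn3 neurons and 12.5% of Gad cells. Foxp2 was found in 11.2% of Hs3st4 neurons (7.65 to 15.5) and 9.40% of Gad cells (7.10 to 12.1), shares that overlap within counting error. Fezf2 was found in 23.8% of Hs3st4 neurons and 41.02% of the Fezf2 and Bcl11b neurons chosen for it. Unthinned, Tle4 had a UMI in 75.5% of Hs3st4 neurons and 21.1% of other Neurod6 neurons.

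Of the 7 factors Tbr1, Bcl11b, Fezf2, Foxp2, Tle4, Sox5 and Zfpm2, at least 3 were found in 66.5% of thinned Hs3st4 neurons (60.6 to 72.2), 16.2% of other Neurod6 neurons, 39.9% of Fezf2 and Bcl11b neurons, 20.6% of Unc5d and Pdzrn3 neurons and 3.80% of Gad cells. The share was 69.4% in run 1 and 64.1% in run 2. Within the Hs3st4 neurons, pairs met about as often as the product of their shares. Tbr1 and Bcl11b were found together in 131 cells (48.7%, product 48.1%), and Tle4 and Bcl11b in 80 (29.7%, product 30.3%). Sla and Lpl met in 48 cells (17.8%, product 14.4%).

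**Figure D4:**
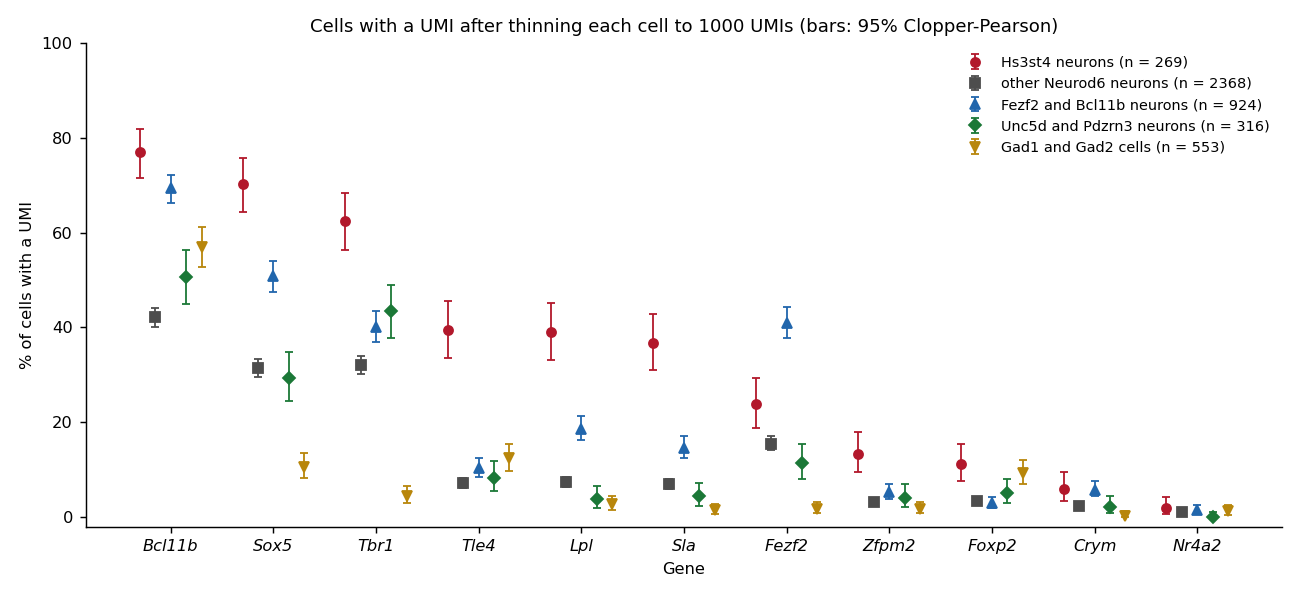
Percentage of cells with a UMI of 11 genes after thinning to 1000 UMIs, in Hs3st4 neurons, the 3 other sets of Neurod6 neurons and Gad cells, with 95% Clopper-Pearson intervals. Sox5, Tbr1, Tle4, Lpl and Sla are highest in Hs3st4 neurons, and Fezf2 is highest in the Fezf2 and Bcl11b neurons.

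The 2 runs were set against each other within the Hs3st4 neurons, a comparison chosen after the data were seen. Of 5518 measured genes 392 were at least 1.5-fold higher in run 2 (7.10%) and 479 lower (8.68%). Median depth was close, at 4639 and 4737 UMIs. The microtubule regulator Stmn1 was 5.99-fold higher in run 2 (135 against 22.5 CPM), and it also differed 4.50-fold between the runs in other Neurod6 neurons. The semaphorin receptor Nrp1 was 3.36-fold higher (297 against 88.6 CPM) and the teneurin Tenm2 3.18-fold, and in other Neurod6 neurons they were 1.99-fold and 2.14-fold higher in run 2. Dact1, a modulator of Wnt signalling, was 6.58-fold lower in run 2 (20.3 against 134 CPM), and Reln 3.17-fold lower, with 48 of its 98 UMIs of run 1 in 1 cell. Of the layer 6 genes Crym was 6.41-fold higher in run 2 (106 against 16.5 CPM, 3.38 to 13.4), Syt6 3.80-fold and Sla 1.95-fold. In other Neurod6 neurons Sla was 3.55-fold and Crym 2.26-fold higher in run 2 as well, and Syt6 stood at a ratio of 0.990. Radial glia markers summed to 445 CPM in run 2 and 749 CPM in run 1. Xist was 2.69-fold higher in run 2 (715 against 266 CPM), and 1.56-fold higher there in other Neurod6 neurons. Y-linked RNA lay in run 1 alone by construction, because run 1 was ended at the last cell that held it. Nothing in the labels says what the runs are, and whether they differ in the sex of the embryos was not tested.

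Of the named genes of the comparison with other Neurod6 neurons, layer and newborn markers included, 126 had UMIs in both sets of both runs, and 118 had the same direction in both. Of the other 8, 3 were past the limit over both runs, namely Npy, Kcnip2 and Rgs10, a regulator of G protein signalling with 4 UMIs in Hs3st4 neurons. The remaining 5 were the markers Crym, Nxph4, Crim1, Mdga1 and Dkk3, which were within the limit over both runs. The leading genes were chosen for the same direction in both runs, and list members by their ratio over both runs. The count of 118 is therefore no separate check of the runs.

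**Figure D5:**
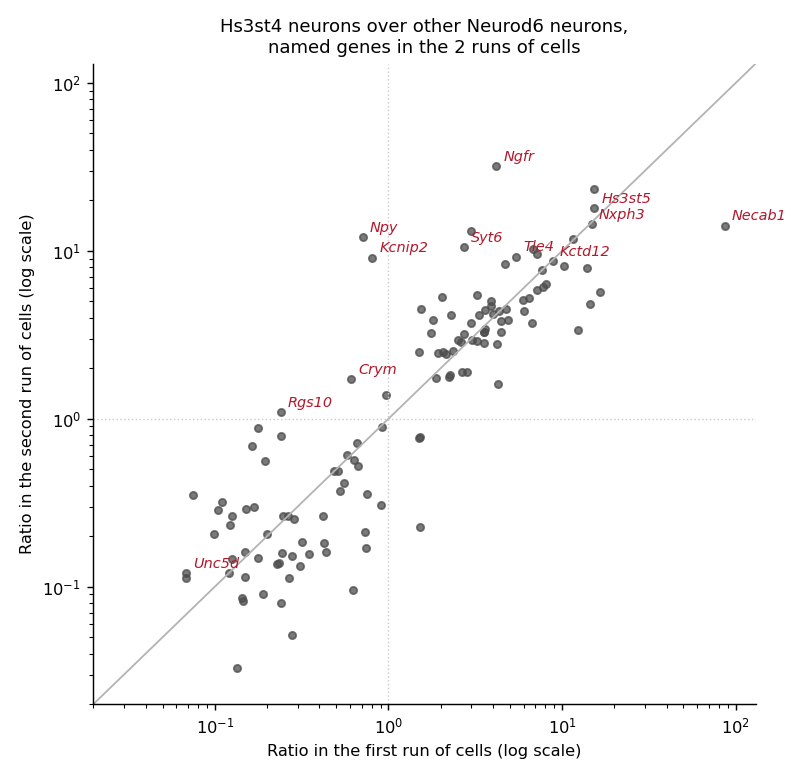
Ratio of Hs3st4 neurons over other Neurod6 neurons in run 1 (horizontal, log scale) and the second run (vertical, log scale) for 126 named genes with UMIs in both sets of both runs, with the diagonal as a line of equal ratios. Of the 126 points 118 lie to the upper right or lower left of equal levels, and Npy, Kcnip2, Crym and Rgs10 are among the 8 that do not. The leading genes among the points were chosen for the same direction in both runs.

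Mc4r divided the Hs3st4 neurons into 140 cells with and 129 cells without a UMI of it, at median depths of 4677 and 4697 UMIs, a split also chosen after the data were seen. Mc4r is a gene of the rule, so a cell without it had to reach 3 UMIs through Hs3st4 and Nfe2l3, and the values are a description. Of 5518 genes 271 were at least 1.5-fold higher in cells with Mc4r (4.91%) and 264 lower (4.78%). Neurod1 stood at 39.5 CPM in cells with Mc4r and 199 CPM in cells without (5.05-fold lower, 3.33 to 7.89), with ratios of 0.506 in run 1 and 0.138 in run 2. Its 157 UMIs lay in 38 cells, with up to 40 in 1 cell. Nrp1 was 4.69-fold lower (70.5 against 331 CPM, 3.43 to 6.51), from 264 UMIs in 64 cells. Its ratios were 0.438 and 0.190 in the 2 runs. Crym was 3.09-fold lower over both runs (31.04 against 95.8 CPM), but its ratios within the runs, 0.715 and 0.384, were both nearer to 1. Crym was higher in run 2 as a whole, and how far the run enters the split was not tested. Fam84b was 2.14-fold (1.42 to 3.27) and the netrin-G ligand Lrrc4c 1.95-fold higher. Tle4 (1.38-fold), Tbr1 (1.32-fold) and Lpl (1.24-fold) were higher in cells with Mc4r but within the limit. The median over all 269 cells was 1 Mc4r UMI, so a cell without one may still express the gene.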

How the data were processed

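Raw UMI counts per gene and cell were deposited by the authors in 1 matrix that pools all samples, with gene and cell names and no normalization. The build was mm10, per the submitters' processing notes, while which aligner and counter were used is not given in the sources used here. In all, the matrix holds 0 mitochondrial genes and its lowest cell has 1111 UMIs. Counts were summed over the cells of each set and scaled to CPM with Python 3.11.15, numpy 2.4.6, scipy 1.17.1, pandas 2.3.3, scikit-learn 1.9.0 and matplotlib 3.10.9.

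Ratios carry exact conditional binomial intervals and shares Clopper-Pearson intervals, both at 95%. A gene needed 50 UMIs over both sets, and a difference was called past 1.5-fold. A set at 0 UMIs was given a floor of 3 counts. On simulated Poisson counts, 95.9%, 95.8% and 96.1% of intervals over 10548, 9474 and 7628 genes held the true ratio for other Neurod6 neurons, Fezf2 and Bcl11b neurons, and Unc5d and Pdzrn3 neurons. Poisson counts are what the intervals assume, so this checks the calculation and does not cover RNA that lies in few cells. Of 10348 genes simulated without a change against other Neurod6 neurons, 192 still came out at least 1.5-fold higher and 360 lower.

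Named genes were the 15 highest and 10 lowest ratios (past 1.5-fold in both runs, at least 100 UMIs) and the 2 highest and 2 lowest members of each of 25 lists (1 of each in the comparisons with the Fezf2 and Bcl11b neurons and with the Unc5d and Pdzrn3 neurons), with all layer markers. A list with no member past the limit gave its gene with the most UMIs. Other genes are named as chosen after their values were seen. The cells and lists were chosen with earlier results of these data known. Doublets were kept, and their removal by a simulated-doublet score was an alternative. Promoter windows came from RefSeq (GRCm38.p6). Some genes and 1 list are not reported here.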

Additional observations from a re-analysis of the deposited data

Results flagged for a closer look

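Cells outside the gates also met the UMI rule. Of the 303 cells with at least 3 UMIs of Hs3st4, Mc4r and Nfe2l3 and at least 1 of Hs3st4, 18 had no Neurod6 UMI, at a median depth of 3087 UMIs, and 16 had Neurod6 with 2 or more Gad1 and Gad2 UMIs, at a median depth of 5890 UMIs. Of the 18 cells 13 lay in run 1 and 5 in run 2, and all 16 cells with Gad UMIs lay in run 1. None of them was in the Hs3st4 neurons or in the 3 sets of Neurod6 neurons. Of the 18 cells without Neurod6, 4 had 2 or more Gad UMIs, and any with at least 3 were among the Gad cells. They are listed because the rule genes had a signal in cells that the Neurod6 sets left out.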

How the results depend on the processing

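Over 14 other settings and 2 more chosen after seeing the data (at least 3 Neurod6 UMIs in every set; without cells of over 10% globin or 50 Ttr UMIs), 332 named gene ratios gave 5057 values. Of these 4519 stayed inside the counting interval of the ratio, 530 moved outside it and 8 of genes past the limit turned direction. The minimum of 10 UMIs, the minimum of 1 UMI and the 2-fold limit cannot change a ratio. All 332 values under each of them stayed by construction and say nothing about how stable the ratios are. Among the values that did not turn, 23 were of genes within the limit and changed sign, Crym in run 1 for example. With cells chosen on 0.5 of the UMIs, 114 of 303 ratios moved (Tle4 to a log2 ratio of 2.53, Kctd12 to 2.82), and without 289 likely doublets, 25 of them Hs3st4 neurons, 44 of 326 moved, and none turned under either. The log2 ratio over other Neurod6 neurons became 2.51 for Igfbp7 with at least 3 Neurod6 UMIs, 0.35 for Pcdh11x with a rule limit of 2 UMIs, -0.49 for Npy and -0.31 for Kcnip2 in run 1 alone, and 0.13 for Rgs10 in run 2 alone. Over Fezf2 and Bcl11b neurons it became -1.12 for Kcnip2 and -0.17 for Cyp26b1 in run 1 alone and 0.19 for Homer2 in run 2 alone. The median of the peptide signalling list turned to 0.03 over other Neurod6 neurons at a minimum of 1 UMI, and over Unc5d and Pdzrn3 neurons to -0.58 at that minimum, -0.35 in run 1 and -0.91 in run 2. Fewer UMIs and fewer cells enter by construction, and any other cause was not tested.

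Counts of genes past the limit moved with the minimum and the limit. With a minimum of 10 UMIs, a minimum of 1 UMI and a 2-fold limit, 1975, 3580 and 557 genes were higher than in other Neurod6 neurons, and 1247 were lower at 2-fold. Over Fezf2 and Bcl11b neurons the same settings gave 1261, 2960 and 262 higher and 1793, 1903 and 389 lower genes, and over Unc5d and Pdzrn3 neurons 2098, 3137 and 582 higher and 2053, 2889 and 509 lower genes. With cells chosen on 0.5 of the UMIs and the other 0.5 compared, 136 neurons were left, and 544 genes were higher and 440 lower than in Unc5d and Pdzrn3 neurons. The share of cells was 6.09% at a rule limit of 2 UMIs, 3.01% at 5, 3.89% with no Gad UMI, 2.35% on 0.5 of the UMIs, 3.40% in run 1 and 6.83% in run 2. Of 1148 list medians 1135 stayed close to their value. No paired analysis was possible because all samples share 1 matrix whose cells carry no sample. With 1 pooled sample there is no spread between embryos or libraries, and intervals cover counting error only; genes with few UMIs have wide ones.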
